A study of Mus musculus with 6 samples.

Results

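The genes described here are 8 genes of sterol and fatty acid synthesis, chosen by symbol from the 54532 genes of the deposited table: *Srebf1*, *Srebf2*, *Insig1*, *Hmgcs1*, *Sqle*, *Fasn*, *Scd1* and *Scd2*. RNA-seq was done on sorted LSKs, the Lin-Sca1+c-Kit+ bone marrow (BM) cells that contain hematopoietic stem and progenitor cells, from C57BL/6 mice with or without deletion of *Myh9*, which codes for the heavy chain of non-muscle myosin IIA. The CTRL group had 3 libraries from Myh9fl/fl littermates without cre, and the cKO group had 3 libraries from Myh9fl/fl;Mx1-cre mice. Both groups carried the floxed *Myh9* alleles and both received poly I:C at 5 mg/kg, in 2 doses by the sample descriptions, while the methods text gives another number. Mice were genotyped at 4 to 5 weeks of age, and 100000 LSKs were sorted for each library on day 4 after the first injection. Mx1-cre is switched on by interferon and is not limited to blood cells, and how many mice went into each library is not stated. The 8 genes were picked with their difference between these groups already known, so their values are given as a description, without a p-value.

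SREBP-1 and SREBP-2, the products of *Srebf1* and *Srebf2*, are transcription factors made as precursors in the membrane of the endoplasmic reticulum. When sterols are scarce the escort protein SCAP carries them to the Golgi, where they are cut and released to the nucleus. When sterols are plentiful INSIG proteins hold SCAP back. SREBP-2 is best known for genes of cholesterol synthesis and uptake, and SREBP-1c for genes of fatty acid synthesis.

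Sequence upstream of 4 of the genes, textbook SREBP targets with 1 start each in the RefSeq table, is shown. *Srebf1* has 3 starts in that table and is not shown. Promoters were listed there for 5 of the 8 genes, with 7 starts in all, on the mouse build GRCm38.p6. The 250 bases before each RefSeq start were searched. In *Srebf2* and *Insig1* the gene as deposited begins before the RefSeq start, by 88 and 49 bases, and the sequences shown stop before the deposited gene. Each runs 5′ to 3′ on the strand of its gene. Capitals mark TCACNCCA, the core of a sterol regulatory element, and CCAAT, the box bound by NF-Y, each searched on both strands, so that a CCAAT box on the other strand reads ATTGG.
Hmgcs1 (chr13:119690101-119690350, plus strand): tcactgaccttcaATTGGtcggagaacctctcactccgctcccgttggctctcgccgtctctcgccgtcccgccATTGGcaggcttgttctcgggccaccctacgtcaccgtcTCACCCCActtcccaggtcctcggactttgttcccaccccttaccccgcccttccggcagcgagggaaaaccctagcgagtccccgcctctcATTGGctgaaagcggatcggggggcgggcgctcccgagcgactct
Srebf2 (chr15:82147019-82147180, plus strand): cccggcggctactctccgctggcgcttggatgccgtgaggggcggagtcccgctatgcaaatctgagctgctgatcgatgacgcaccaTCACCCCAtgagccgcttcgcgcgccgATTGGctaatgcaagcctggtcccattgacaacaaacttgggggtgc
Insig1 (chr5:28071162-28071362, plus strand): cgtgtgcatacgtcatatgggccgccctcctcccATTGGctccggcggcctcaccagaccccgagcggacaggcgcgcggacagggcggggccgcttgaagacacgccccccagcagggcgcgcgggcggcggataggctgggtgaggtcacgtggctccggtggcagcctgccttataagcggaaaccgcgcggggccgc
Fasn (chr11:120824548-120824797, minus strand): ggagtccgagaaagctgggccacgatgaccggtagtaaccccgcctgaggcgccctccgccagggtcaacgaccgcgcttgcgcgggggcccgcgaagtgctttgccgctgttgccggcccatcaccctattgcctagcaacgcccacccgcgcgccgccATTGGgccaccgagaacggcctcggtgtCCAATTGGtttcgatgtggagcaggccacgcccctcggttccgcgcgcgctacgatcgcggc
TCACNCCA was found in the *Hmgcs1* window, beginning 137 bases before the RefSeq start, and in the *Srebf2* window, beginning 162 bases before the start. It was found in 3.67% of the 32851 mouse promoters of the same length, and 4.2% of genes had it in at least 1 promoter. Among the 17 other genes of mevalonate and sterol ring synthesis with a promoter in the table, 1 had it. The *Hmgcs1* and *Fasn* windows each held 3 CCAAT boxes, of which a pair in *Fasn* overlapped on opposite strands, and the *Insig1* and *Srebf2* windows each held 1. The windows before the 3 starts of *Srebf1*, not shown, held no TCACNCCA and 2 CCAAT boxes. A CCAAT box was present in 33.8% of all promoters, in 37.5% of all genes and in 15 of those 17 genes. The E-box CACGTG, the same on both strands, was found in the *Insig1* window, beginning 101 bases before the start, and in 6.02% of all promoters. These are matches of letters in a short window, and binding of a factor was not measured.

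The authors' unit is FPKM, in which the fragments on a gene are divided by its length and by the size of the library. FPKM times gene length fell on whole multiples of 1 step for 100% of the values, within 0.02 of a read, which gave 17571544 to 19894562 reads on genes per library. At that depth 3 reads on a gene of 1 kb are worth 0.151 to 0.17 FPKM. Differences between groups are cKO minus CTRL on the log2(FPKM + 1) scale, which understates the change of genes with low values. They were fitted with limma for the 11552 genes that averaged 1 FPKM or more, and a gene was called at a Benjamini-Hochberg adjusted p under 0.05. By this rule 40.5% of all genes tested were called, 20.6% lower in cKO and 19.9% higher, and the median difference was -0.0096. In *Myh9* itself the level was 22.5 ± 0.495 FPKM in CTRL and 18.7 ± 1.18 in cKO (SD, n = 3), a log2 difference of -0.26 with a limma adjusted p of 0.00642. This adjusted p was 0.0562 (difference -0.12) after each library was corrected for the dependence of its values on GC content and gene length, named the GC and length correction here, and the table does not show the floxed part of the gene separately.

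*Scd2*, *Insig1* and both *Srebf* genes were lower in the cKO libraries, as were *Hmgcs1*, *Sqle* and *Fasn*, while *Scd1* was barely detected in either group. In each of the 7 genes that averaged 1 FPKM or more, all 3 cKO values lay below all 3 CTRL values. Separation of this kind was seen in 54% of all genes tested, 28.5% with cKO below and 25.5% with cKO above, and since the rule used this contrast nothing is read from the count. Their log2 differences ran from -0.91 in *Scd2* to -0.27 in *Srebf2*, with a median of -0.42. In bulk libraries, fewer cells that express a gene and less RNA of that gene in each cell cannot be told apart.

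**Figure D1:**
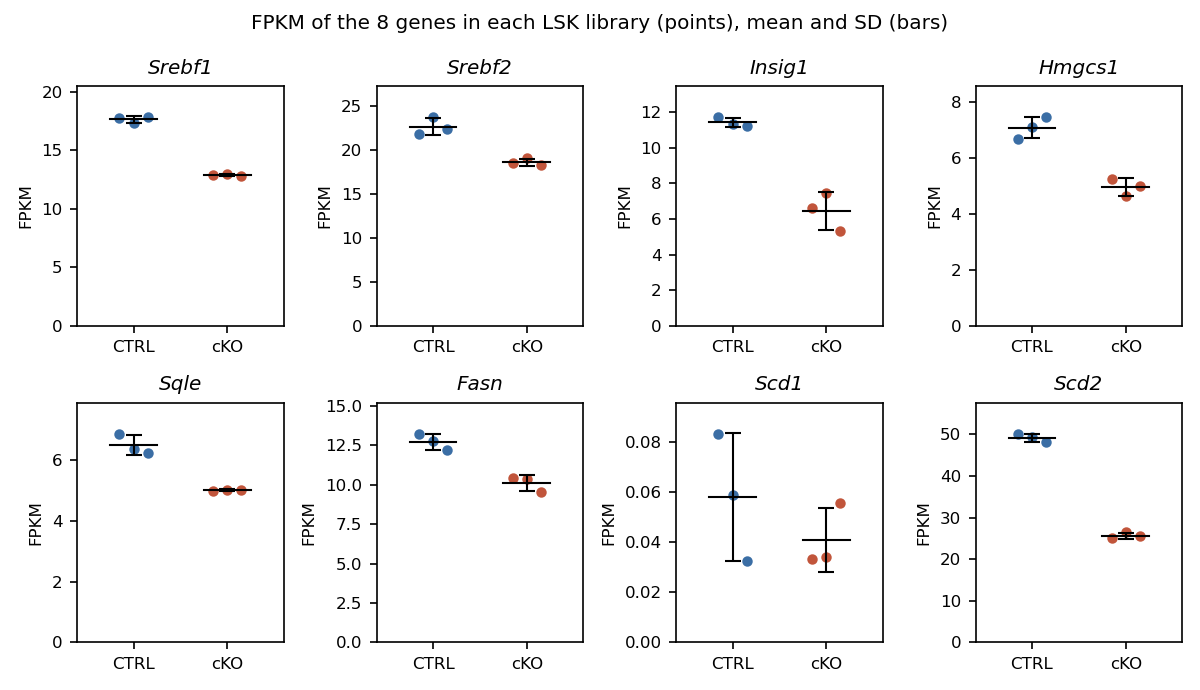
Expression of the 8 genes in FPKM (vertical axes, each from 0 and on its own scale) in the 3 CTRL and 3 cKO LSK libraries. Points are libraries, and bars are the mean and SD. The groups are apart in all panels but that of *Scd1*, where all values lie under 0.1 FPKM.

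Of the regulators, *Srebf1* (ENSMUSG00000020538, mm10 chr11:60199089-60222581, minus strand) codes for SREBP-1. Its levels were 17.8, 17.3 and 17.8 FPKM in CTRL and 12.9, 13.0 and 12.8 in cKO. The 3 libraries of each group were close together, and the highest cKO value was well below the lowest CTRL value. The mean went from 17.6 ± 0.282 to 12.9 ± 0.112 FPKM (SD, n = 3), a difference of -26.9%, with a log2 difference of -0.42 ± 0.031 (SE). These values rested on 1719 to 1992 reads in CTRL and 1335 to 1360 in cKO. The table has 1 value for the whole gene, so SREBP-1a and SREBP-1c, which differ in their first exon, were not separated. *Rai1*, on the opposite strand, shares 109 exon bases with *Srebf1*, and the library kit does not mark the strand. *Rai1* had a mean of 7.48 FPKM.

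*Srebf2* (ENSMUSG00000022463, chr15:82147181-82205379, plus strand) had 21.9, 23.7 and 22.4 FPKM in CTRL and 18.6, 19.1 and 18.3 in cKO. The groups did not overlap, and the difference between them on the log2 scale was the smallest of the 7 genes above 1 FPKM. The mean went from 22.7 ± 0.959 to 18.6 ± 0.397 FPKM, a difference of -17.8%, with a log2 difference of -0.27 ± 0.0396 (SE). Within a library, the ratio of *Srebf1* to *Srebf2* FPKM was 0.779 ± 0.044 in CTRL and 0.692 ± 0.00877 in cKO (SD, n = 3).

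*Insig1* (ENSMUSG00000045294, chr5:28071363-28078662, plus strand) codes for the retention protein that is itself a target of SREBP. It had 11.7, 11.3 and 11.2 FPKM in CTRL and 6.61, 7.45 and 5.33 in cKO. The cKO libraries were all below the CTRL libraries and were more spread out, with a coefficient of variation of 16.5% against 2.20%. The mean was 11.4 ± 0.251 FPKM in CTRL and 6.46 ± 1.06 in cKO, a difference of -43.4%, with a log2 difference of -0.74 ± 0.1 (SE). Leaving out 1 library at a time moved it between -0.84 and -0.63.

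*Insig2*, the paralog of *Insig1*, was not one of the 8 genes and had 4.72, 3.77 and 4.20 FPKM in CTRL and 4.32, 4.17 and 4.72 in cKO. Its groups overlapped, with a log2 difference of 0.049 and a limma adjusted p of 0.656. The ratio of *Insig1* to *Insig2* was 2.72 ± 0.262 in CTRL and 1.48 ± 0.331 in cKO, and the ratio of *Insig1* to *Srebf2* was 0.505 ± 0.029 in CTRL and 0.346 ± 0.0501 in cKO (SD, n = 3). *Insig2* was looked at in this detail after its values were seen.

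Of the sterol enzymes, *Hmgcs1* (ENSMUSG00000093930, chr13:119690379-119708260, plus strand) codes for the cytosolic HMG-CoA synthase, an early enzyme of the mevalonate pathway. Its levels were 6.69, 7.09 and 7.45 FPKM in CTRL and 5.24, 4.63 and 5.01 in cKO. The lowest CTRL library was above the highest cKO library. The mean went from 7.08 ± 0.382 to 4.96 ± 0.307 FPKM, a difference of -29.9%, with a log2 difference of -0.44 ± 0.0588 (SE). Of its transcript sequence, 9.79% in words of 75 bases is also found in other genes, most of it in the antisense gene *Gm48342*. That gene is listed at 0 FPKM in all 6 libraries, and how reads in the shared 557 bases were assigned is not given in the sources used here.

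*Sqle* (ENSMUSG00000022351, chr15:59315077-59331192, plus strand) codes for squalene epoxidase, a rate-limiting enzyme of the later part of cholesterol synthesis. It had 6.85, 6.36 and 6.22 FPKM in CTRL and 4.98, 5.02 and 5.01 in cKO. The cKO libraries were almost level with each other and below every CTRL library. The mean went from 6.48 ± 0.333 to 5.00 ± 0.0237 FPKM, a difference of -22.8%, with a log2 difference of -0.32 ± 0.0475 (SE).

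Of the fatty acid enzymes, *Fasn* (ENSMUSG00000025153, chr11:120805846-120824547, minus strand) codes for fatty acid synthase, which builds palmitate from acetyl-CoA and malonyl-CoA. It had 13.2, 12.8 and 12.2 FPKM in CTRL and 10.4, 10.4 and 9.55 in cKO. The ranges within the groups were narrower than the gap between them. The mean went from 12.7 ± 0.518 to 10.1 ± 0.482 FPKM, a difference of -20.6%, with a log2 difference of -0.31 ± 0.0486 (SE).

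*Scd2* (ENSMUSG00000025203, chr19:44293676-44306864, plus strand) and *Scd1* (ENSMUSG00000037071, chr19:44394451-44407709, minus strand) lie in 1 gene cluster and code for stearoyl-CoA desaturases, which put the double bond into palmitate and stearate. *Scd2* had 50.2, 49.3 and 48.2 FPKM in CTRL and 25, 26.5 and 25.6 in cKO. It was the most highly expressed of the 8 genes in both groups and had the largest difference among them. The mean went from 49.2 ± 0.981 to 25.7 ± 0.724 FPKM, 1.92 times higher in CTRL, with a log2 difference of -0.91 ± 0.0324 (SE). It rested on 4741 to 5439 reads in CTRL and 2557 to 2632 in cKO. Within a library, *Scd2* FPKM was 3.87 ± 0.0809 times that of *Fasn* in CTRL and 2.55 ± 0.138 times in cKO (SD, n = 3).

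*Scd1* had 0.0832, 0.0587 and 0.0323 FPKM in CTRL and 0.0331, 0.0340 and 0.0556 in cKO. These values stand for 3 to 8 reads in a library, the groups overlapped, and no difference was detectable at this depth. Of the 2 desaturase genes, the signal in LSKs was therefore almost all listed under *Scd2*. Only 1.45% of the *Scd2* transcript in words of 75 bases is shared with *Scd1*.

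Per unit of length, the level was highest in *Scd2* in both groups, followed by *Srebf2*, *Srebf1*, *Fasn*, *Insig1*, then *Hmgcs1* and *Sqle*, with *Scd1* last. *Hmgcs1* was above *Sqle* in the CTRL mean and just below it in the cKO mean, and their library values overlapped in both groups, so they have no set order. All other neighbours in the order were apart in CTRL and in cKO.

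Gene length moved with the differences over the whole table. Over the genes tested, the median log2 difference was 0.1 in the shortest of 4 equal classes of genes by length (up to 1993 bases) and -0.077 in the longest (from 5955 bases). *Srebf2* and *Fasn* belonged to the longest class, *Srebf1*, *Hmgcs1*, *Sqle* and *Scd2* to the one before it, and *Insig1* to the second shortest. After the GC and length correction, the log2 differences were -0.33 in *Srebf1*, -0.15 in *Srebf2*, -0.76 in *Insig1*, -0.41 in *Hmgcs1*, -0.26 in *Sqle*, -0.17 in *Fasn* and -0.85 in *Scd2*. All 7 kept their sign, and *Srebf2* and *Fasn* had a difference more than 1.5 times smaller.

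**Figure D2:**
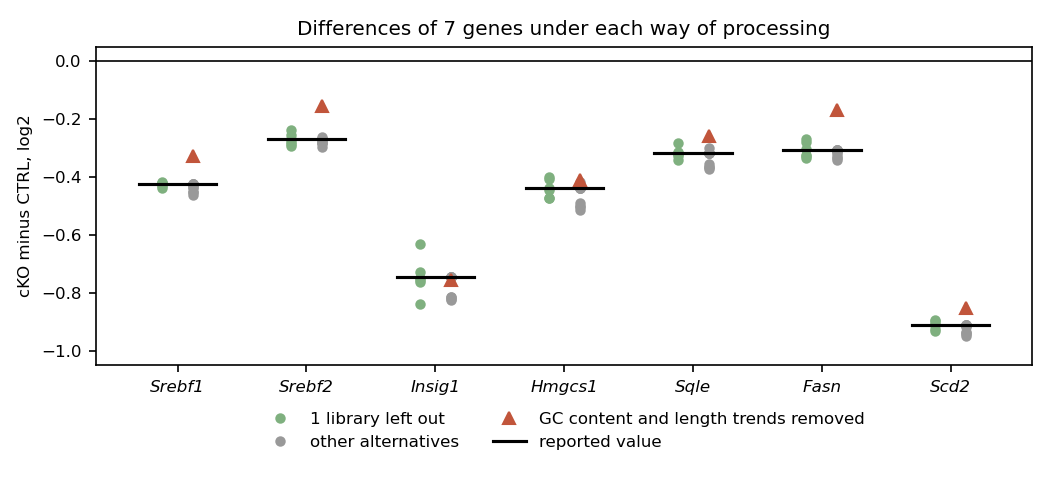
Difference between cKO and CTRL on the log2 scale (vertical axis) of the 7 genes above 1 FPKM, as reported (black lines), with 1 library left out (green), under other alternatives (grey) and after the GC and length correction (triangles). All values are below 0, and *Insig1* has the widest range when 1 library is left out (-0.84 to -0.63).

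Markers of other BM cell types also differed between the groups, although the lineage antibodies of the sort, as the methods give them, are directed at mature T, B, myeloid and erythroid cells. Summed FPKM of 9 erythroid markers was 39.9 to 40.3 in CTRL and 89.5 to 101.2 in cKO, and of 7 megakaryocyte markers 60 to 63.6 and 130 to 134, with all 6 and all 4 of those tested higher in cKO. Of 8 neutrophil and monocyte markers tested 7 were lower in cKO, where 9 such markers summed to 342 to 373 FPKM against 518 to 527 in CTRL. *Lyz2*, the most abundant of them, went from 230 to 133 FPKM. Markers of the LSK gate summed to 343 to 348 FPKM in CTRL and 348 to 378 in cKO, with 3 of 8 higher and 1 lower. Of 5 macrophage markers tested 3 were higher and 2 lower (sums of 27.6 to 29.9 and 31.4 to 33.5 FPKM). Of 4 B and plasma cell markers 3 were higher and 1 lower (98.8 to 99.3 and 121 to 128). Of 4 T and NK cell markers 3 were higher and 1 lower (365 to 378 and 334 to 338). The 1 lower was *Nkg7* (353 FPKM in CTRL and 280 in cKO), which made up most of that sum. Higher were *Gzmb* (5.04 and 15.9), *Ccl5* (10.1 and 35.5) and *Klrd1* (0.919 and 2.68). Of 7 mast cell and basophil markers 6 were higher (126 to 137 and 189 to 198). Adipocyte and stromal markers summed to 0.0426 to 0.212 FPKM in CTRL and 0.397 to 0.611 in cKO, with all 9 below the filter. *Fabp4* had 0, 0 and 2 reads in CTRL and 25, 18 and 13 in cKO, while *Lepr* had at most 3 reads, in a CTRL library. The fat cell genes *Plin1*, *Cidec*, *Retn* and *Lep* were at 0 in all 6 libraries. Beside these counts of markers, 20.6% of all genes tested were lower in cKO and 19.9% were higher. The part of the erythroid, megakaryocyte and neutrophil and monocyte shift in the results on lipid genes was not tested.

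The other genes of cholesterol synthesis were tested, and those that passed were all lower in cKO. Of 19 genes of mevalonate, isoprenoid and sterol ring synthesis above 1 FPKM, 12 were lower in cKO, none was higher and 7 did not pass, with a median log2 difference of -0.24 against -0.0096 over all genes. The background for a gene to be lower was 20.6%.

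Of the mevalonate enzymes, a kinase and the decarboxylase fell. Mevalonate kinase (*Mvk*) went from 8.18 ± 0.339 to 6.01 ± 0.519 FPKM (limma adjusted p = 0.00379) and mevalonate diphosphate decarboxylase (*Mvd*) from 9.77 ± 0.629 to 7.19 ± 0.187 (adjusted p = 0.00162). Among the enzymes that act on the sterol rings, *Nsdhl*, which helps to remove the methyl groups at carbon 4, had the largest fall, from 11.0 ± 0.322 to 7.35 ± 0.114 FPKM (log2 difference -0.52, limma adjusted p = 0.000142). *Sc5d*, the sterol C5 desaturase, went from 3.08 ± 0.237 to 2.13 ± 0.21 FPKM (limma adjusted p = 0.00833). *Ebp*, the sterol isomerase, was the most abundant sterol ring gene that did not pass, with 27.9 FPKM in CTRL and 27.2 in cKO (limma adjusted p = 0.703). *Fdps* and *Hsd17b7* were below 1 FPKM.

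The number of lower genes among the 19 depended on single libraries and settings, while none was higher under any alternative tried. Leaving out CTRL replicates 1, 2 and 3 in turn gave 7, 6 and 8 lower genes, and leaving out cKO replicates 1, 2 and 3 in turn gave 7, 8 and 10. It was 7 after the GC and length correction, with no filter on low values and, of 12 genes, with a filter at 5 FPKM.

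**Figure D3:**
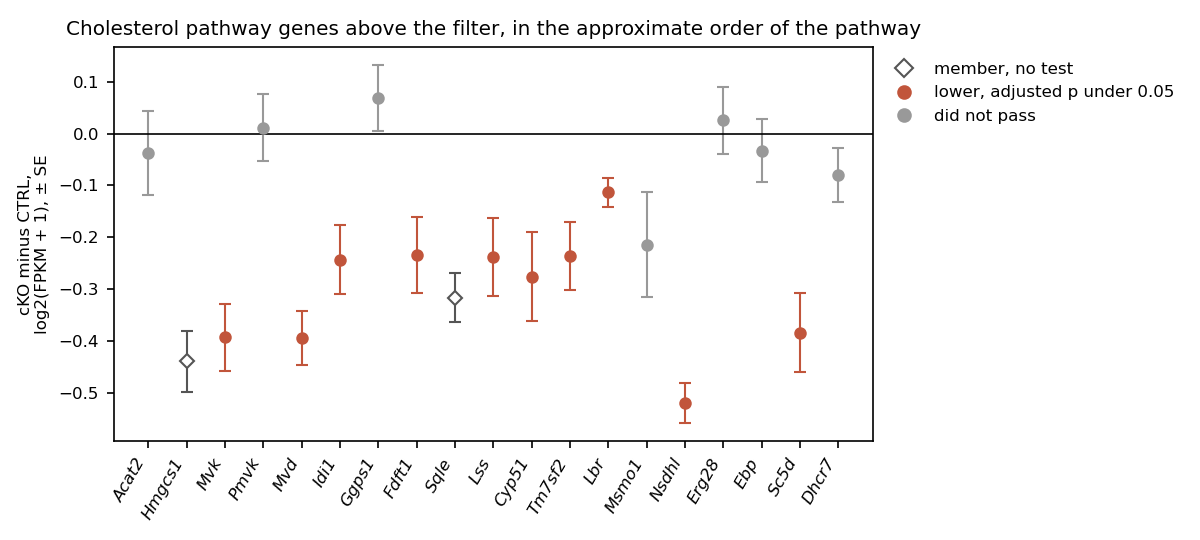
Difference between cKO and CTRL on the log2(FPKM + 1) scale (vertical axis, ± SE) of cholesterol synthesis genes above 1 FPKM, from left to right in the approximate order of the pathway. Red points were lower at a limma adjusted p under 0.05, grey points did not pass, and open diamonds are *Hmgcs1* and *Sqle*, for which no test is given. The red points lie between -0.11 (*Lbr*) and -0.52 (*Nsdhl*), and no gene was called higher.

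Of 12 genes tested that process SREBP or carry the sterol feedback, 3 were lower (20.6% of all genes tested were), none was higher and 9 did not pass, with a median log2 difference of -0.058. After the GC and length correction 1 was called higher and 2 lower, with a median of 0.0079. *Scap*, the escort protein, had 10.3 FPKM in CTRL and 10.5 in cKO (limma adjusted p = 0.594), given here after its value was seen. The largest fall was in *Erlin1*, which takes part in protein degradation at the endoplasmic reticulum, from 17.7 ± 0.527 to 13.2 ± 0.391 FPKM (limma adjusted p = 0.000444). Its partner *Erlin2* went from 8.91 to 7.69 FPKM (limma adjusted p = 0.0125). *Mbtps1*, the site-1 protease that makes the first cut of SREBP, went from 8.98 ± 0.122 to 7.94 ± 0.391 FPKM (limma adjusted p = 0.0283), and this call was lost on leaving out any 1 library other than cKO replicate 3 (adjusted p of 0.0623 to 0.0858), with no filter on low values (adjusted p = 0.0503) and after the GC and length correction (adjusted p = 0.404).

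Genes of sterol uptake and transport were lower in 7 of 10 tested, with none higher and 3 that did not pass. The median log2 difference was -0.34, and over all genes tested 20.6% were lower and 19.9% higher. *Scarb1*, a receptor for HDL, went from 14 ± 0.325 to 9.78 ± 0.691 FPKM (limma adjusted p = 0.000786). *Npc2*, which hands cholesterol out of lysosomes, went from 84.1 ± 3.91 to 62.1 ± 0.61 FPKM (limma adjusted p = 0.000273). *Tmem97*, also regulated by SREBP, had 75.1 FPKM in CTRL and 78.8 in cKO (limma adjusted p = 0.277).

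LXR is the nuclear receptor that oxysterols activate when cells hold much cholesterol. Of 8 genes of LXR and sterol efflux tested, 5 were lower, 1 was higher and 2 did not pass, with a median log2 difference of -0.38. The shares over all genes tested were 20.6% lower and 19.9% higher. *Apoe*, the apolipoprotein that accepts cholesterol leaving the cell, went from 281 ± 7.1 to 194 ± 3.25 FPKM (limma adjusted p = 3.37e-05). *Soat1*, which stores cholesterol as ester, went from 4.44 ± 0.0526 to 2.66 ± 0.0903 FPKM (limma adjusted p = 0.000258), and *Smpdl3a*, a lipid-degrading enzyme induced by LXR, from 29.4 ± 1.1 to 19.9 ± 1.63 (limma adjusted p = 0.000754). *Lpcat3*, which builds polyunsaturated phospholipids, went from 19.2 ± 0.811 to 22.3 ± 1.24 FPKM (limma adjusted p = 0.0176), a call lost without CTRL replicate 2 or 3 and without moderation of the variance (adjusted p of 0.0501 to 0.0584). *Nr1h2*, one of the LXR genes, had 32.4 FPKM in CTRL and 30.7 in cKO (limma adjusted p = 0.0853, and 0.0438 with quantile normalization). Several of these genes are also expressed by myeloid cells, whose markers fell in the same libraries (*Lyz2* from 230 to 133 FPKM), and their part was not tested.

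Of 20 genes of fatty acid synthesis tested, 8 were lower, 3 were higher and 9 did not pass, against 20.6% lower and 19.9% higher over all genes tested, with a median log2 difference of -0.12. *Mid1ip1*, which promotes the activity of acetyl-CoA carboxylase, had the largest fall, from 30.8 ± 0.566 to 22.0 ± 1.3 FPKM (limma adjusted p = 0.000434). *Acaca*, acetyl-CoA carboxylase itself, went from 1.84 ± 0.099 to 1.32 ± 0.0748 FPKM (limma adjusted p = 0.0157), and *Elovl6*, which lengthens palmitate, from 4.12 ± 0.213 to 3.17 ± 0.334 (limma adjusted p = 0.0193). The call of *Acaca* was lost without CTRL replicate 3 (adjusted p = 0.0519) and after the GC and length correction (adjusted p = 0.0984), and that of *Elovl6* without CTRL replicate 1 or 2 (adjusted p of 0.0649 and 0.0618), with no filter on low values (0.0521) and with no moderation of the variance (0.0545). *Acly*, named after its value was seen, makes cytosolic acetyl-CoA from citrate and went from 46.1 ± 0.296 to 38.3 ± 1.04 FPKM (limma adjusted p = 0.000795). The 3 that rose code for enzymes of fatty acid elongation, as do *Elovl6*, *Elovl5* and *Tecr*, which were lower. The limma adjusted p was 0.00248 in *Elovl5* and 0.0436 in *Tecr*. *Elovl7*, *Hacd1* and *Hacd2*, of the same process, did not pass. *Hsd17b12* went from 39.7 to 46.5 FPKM, *Hacd3* from 17.3 to 20.2 and *Elovl1* from 35.2 to 41.0 (limma adjusted p of 0.00395, 0.0123 and 0.00831). *Fads2*, the delta-6 desaturase, had 25.5 FPKM in CTRL and 22.6 in cKO (limma adjusted p = 0.0891). It was called lower after the GC and length correction (adjusted p = 0.0258) and without cKO replicate 2 (adjusted p = 0.0487). *Mcat* had 22.6 and 23.8 FPKM (limma adjusted p = 0.257, and 0.045 without cKO replicate 1), and *Mlx* had 24.2 and 23.6 (adjusted p = 0.589). Without CTRL replicate 1 or without CTRL replicate 2, and with no filter on low values, the number of lower genes was 5 in place of 8, and with voom on the recovered reads the number of higher genes was 5 in place of 3.

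Further from the synthesis of fatty acids, genes that build glycerolipids or activate fatty acids were higher in 3 of 13 tested and lower in 1, and 9 did not pass. The share of higher genes was close to the 19.9% of all genes tested. The rises were in the acyltransferases *Agpat3* (1.27 ± 0.0927 to 2.66 ± 0.139 FPKM), *Agpat1* (17.9 to 21.7) and *Agpat2* (27.1 to 32.5), with limma adjusted p of 0.00046, 0.00299 and 0.00146. The fall was in *Acsl4*, which activates arachidonate, from 5.44 to 4.34 FPKM (limma adjusted p = 0.00692). *Acsl5* had 39.7 FPKM in CTRL and 41.4 in cKO (limma adjusted p = 0.333).

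Genes of fatty acid oxidation, the opposing pathway, were higher in 7 of 18 tested and lower in 1, and 10 did not pass. The median log2 difference was 0.06, and over all genes tested 19.9% were higher and 20.6% lower. *Slc25a20*, the carnitine carrier of the mitochondrion, went from 8.01 ± 0.247 to 11.7 ± 0.463 FPKM (limma adjusted p = 0.000299). *Cpt1a*, the rate-limiting step of entry into the mitochondrion, went from 27.4 ± 0.0877 to 36.8 ± 0.292 FPKM (limma adjusted p = 6.53e-05), and *Eci2* from 11.9 to 15.9 (limma adjusted p = 0.000729). *Hadha*, of the trifunctional protein, went from 22.1 to 19.5 FPKM (limma adjusted p = 0.0116, and 0.236 after the GC and length correction). *Acadl*, *Acads*, *Hadh*, *Etfa*, *Etfb* and *Eci1*, all at 20 FPKM or more in a group, did not pass (limma adjusted p of 0.229 to 0.864).

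**Figure D4:**
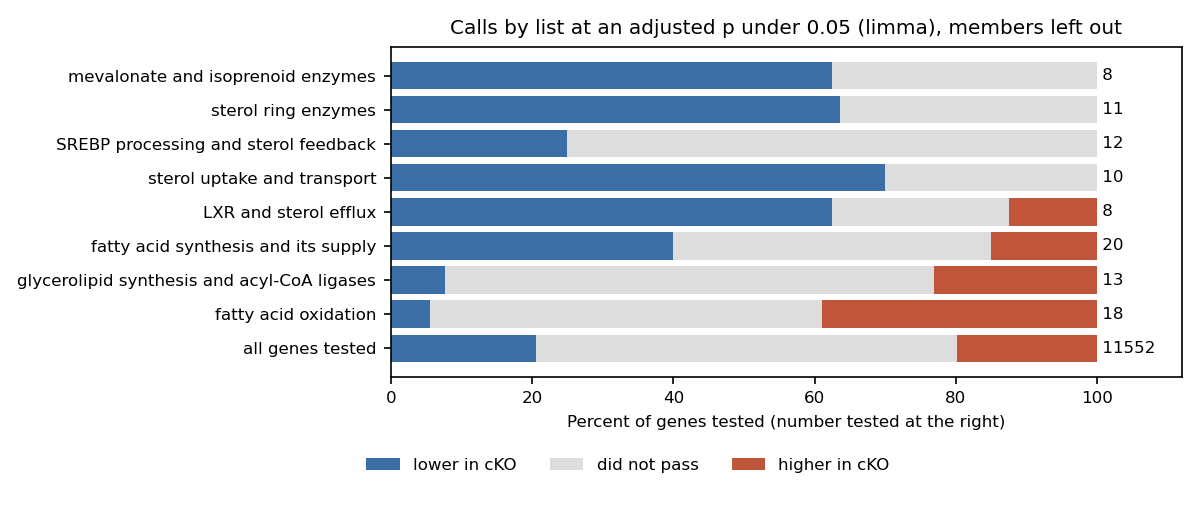
Share of genes called at a limma adjusted p under 0.05 in each list of lipid genes (horizontal axis, percent of genes tested, with the number tested at the right), the 8 genes above left out. Blue is lower in cKO, red is higher and grey did not pass. The bottom bar gives all 11552 genes tested, of which 20.6% were lower and 19.9% higher.

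Over the 8 lists together, 37 of 100 genes tested were lower, 14 were higher and 49 did not pass, with a median log2 difference of -0.072. In the whole table, 20.6% of genes tested were lower and 19.9% higher. The genes whose profile over the 6 libraries was most like that of *Scd2*, measured by the root mean square difference of centred log2(FPKM + 1) values, were *Rgs2*, *Hexa*, *Rnf26*, *Prtn3* and *Ms4a6c* (differences of 0.0307 to 0.0366). *Rgs2*, a regulator of G protein signalling, had 37.1 FPKM in CTRL and 18.8 in cKO, and *Hexa*, a lysosomal hexosaminidase subunit, had 133 and 70.9. *Prtn3*, the granule protease proteinase 3, had 2008 and 1046, *Ms4a6c* had 55.8 and 29.1, and *Rnf26* had 1.90 and 0.504. With 2 groups in 6 libraries, such a profile mostly restates the size of the difference between the groups.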

How the data were processed

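RNA-seq libraries of sorted LSKs, 3 CTRL and 3 cKO, were grouped by their sample descriptions. The library kit does not mark the strand. The authors deposited FPKM values with gene lengths for 54532 genes, 1 column per library. The submitters' processing notes name HISAT2 2.0.5 and mm10, and the counting program and annotation release are not given in the sources used here. Identifiers of 54495 genes are in GENCODE M21, and 11 symbols written as dates were read through their identifiers.

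Reads were recovered from FPKM steps for depth and for 1 alternative test. limma 3.58.1 (R 4.3.3; lmFit, eBayes with a trend, two-sided) was fitted to log2(FPKM + 1) for the 11552 genes that averaged 1 FPKM or more, with Benjamini-Hochberg adjustment over these. Since the libraries are sets of cells of which the number of mice is not stated, p-values measure the spread between these libraries. An exact permutation test of 3 against 3 libraries cannot go below p = 0.1.

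The 8 genes, the pathway and marker lists and the alternatives were chosen with earlier results of these data known. *AW549877*, first listed as an old symbol of *Spring1*, is another gene in RefSeq. It was taken out after its values were seen (6.08 and 4.86 FPKM, adjusted p = 0.0301), and *2410131K14Rik* was used for *Spring1*. Genes named were the 8 genes, *Myh9*, the 3 largest rises and 3 largest falls among genes called in each list, genes at 20 FPKM or more that did not pass, the 5 nearest to *Scd2* in profile, and the most abundant or undetected markers. A few genes that this rule names enter the counts and medians of their lists and are not reported here. Alternatives were a pseudocount of 0.1, no filter, a mean of at least 5 FPKM, median of ratios scaling, quantile normalization, TPM, no moderation of the variance, voom on recovered reads, a replicate block, leaving out each library and, chosen after seeing the data, correction of each library for the dependence of its values on GC content and gene length. Figures were drawn with matplotlib 3.10.9 in Python 3.11.15.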

Additional observations from a re-analysis of the deposited data

How the results depend on the processing

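The median log2 difference over the 7 genes above 1 FPKM was -0.42 and ran from -0.44 to -0.40 on leaving out 1 library, and it was -0.33 after correction for GC content and gene length. After this correction the log2 difference of *Myh9* was -0.12 (limma adjusted p = 0.0562), and on leaving out 1 library it ran from -0.31 to -0.22. The cause was not tested. Genes called over the whole table numbered 4673, and 3542 to 5271 over 16 alternatives. Genes called in the pathway lists numbered 51, and 40 to 54 over the alternatives (12 to 17 higher and 27 to 39 lower).

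Whether CTRL and cKO libraries of the same number were paired is not stated in the sources used here. Deviations of same-numbered libraries correlated at -0.026 to -0.0046, and those of other CTRL and cKO libraries at -0.005 to 0.016. Values this near 0 in every case cannot exclude a pairing. With a replicate block, 4107 genes were called over the table and 44 in the pathway lists (15 higher and 29 lower), with 7 of the 19 cholesterol synthesis genes lower. *Mbtps1* (adjusted p = 0.0619) and *Acaca* (adjusted p = 0.0502) did not pass with the block.

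Differences near 0 that did not pass changed sign after correction for GC content and gene length in *Acadl* (-0.045), *Eci1* (-0.055), *Etfa* (-0.078), *Etfb* (-0.017), *Hadh* (0.0062) and *Tmem97* (-0.022), with quantile normalization in *Acadl* (-0.0094) and *Etfa* (-0.034), with TPM in *Etfa* (-0.014), and with 1 library left out in *Ebp* (range -0.085 to 0.013), *Etfa* (-0.011 to 0.025) and *Mlx* (-0.075 to 0.011). *Scd1* was limited by depth, with at most 8 reads in a library.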
